A study of Homo sapiens with 75 samples.

Results

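The arrays labelled HepG2, untreated, at 0 h are 3 of the 75 arrays of a study of 5 human cell lines, and they were compared with the 12 arrays with the same label for treatment and time from the other 4 lines. HepG2 is a line from a liver tumour, G361 is a melanoma line, TK6 is a B lymphoblastoid line, U2OS is an osteosarcoma line and BJ is a strain of normal skin fibroblasts. All 15 arrays came from cells that had been mock-irradiated (the procedure without the dose). The study's further arrays came from cells collected 3 h or 6 h later, mock-irradiated or given 5 Gy of ionising radiation, with 3 arrays in each of its 25 groups. Its design asked how each line responded to radiation, and the baseline comparison asks which tissue's genes the arrays labelled HepG2 show. The labels do not say whether the 3 replicates were separate cultures, so errors and p-values cover only array-to-array variation, part or all of which could be technical. In bulk RNA, fewer cells of a type and less RNA per cell cannot be told apart. Each line is 1 line or strain, so a difference between lines is one between these 5 and not between tissues.

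The values are log2 levels of messenger RNA, with 1 probe set (a group of short probes) for each of 19775 genes. Array medians lay between 3.91 and 4.07, and arrays of one group correlated at 0.970 to 0.996. The 15 arrays labelled HepG2 correlated with each other at 0.984 to 0.996, while arrays of different lines reached at most 0.932. A level limit of 3.59 log2, the 40th percentile of all probe sets at 0 h, serves here as a rough background. No presence calls were used, so the size of a difference that ends under this limit is uncertain. On the GAPDH control probes, replicate 1 of G361 had a 5' minus 3' difference of -0.918 against -0.177 to 0.0938 in the other 14 arrays, a sign of RNA quality. Without that array 1106 genes were called higher and 1453 lower, and 239 were highest and 161 lowest, against the 1078, 1477, 235 and 171 given below for all arrays. Replicate 1 of G361 was also low in the untreated arrays of 3 h (-0.698) and 6 h (-0.843). The comparisons at those times include these arrays.

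Liver cells are known for secreting the main blood proteins, among them albumin, apolipoproteins and fibrinogen, and HepG2 cells are used because they are known to keep much of that output. Mesenchymal cells such as fibroblasts and bone-forming cells are known instead for collagens, matrix enzymes and transcription factors of the TWIST, FOX and PRRX families. Blood cells carry surface receptors and granule proteases of their own. These programmes are largely exclusive in healthy tissue, and tumour lines can mix or lose them.

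Hepatocyte markers were low in the arrays labelled HepG2 and lay among the levels of the other lines, against their label. Albumin (ALB) stood at 2.74, 3.00 and 2.98 log2 in replicates 1 to 3, and at 2.64 to 3.18 (median 2.82) in the 12 other arrays. The apolipoprotein gene APOA1 stood at 3.97, 3.99 and 4.22, and the other arrays lay at 3.24 to 4.56 (median 4.21). Both genes therefore overlapped fully with lines from skin, blood and bone. The fibrinogen genes FGA, FGB and FGG had means of 3.67, 2.91 and 2.86, and the glypican gene GPC3, often high in liver tumours, had a mean of 3.47. SERPINA1, the liver's elastase inhibitor, was at 4.41, 3.21 and 3.54, and in U2OS it averaged 8.64.

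Of 18 measured hepatocyte markers, 8 had a mean under the level limit in these arrays and 0 had a mean over 6 log2. The mean of the list was 3.78 to 3.82 in the 3 arrays, within the 3.37 to 4.14 of the other 12. In the comparison with the mean of the 4 lines, 2 markers were called higher and 0 lower, where a call means an adjusted p under 0.05 and a difference of at least 1 log2 (2-fold). Over all genes 5.45% were called higher and 7.47% lower. The 2 were AFP, the fetal counterpart of albumin, and CYP2E1, a drug-oxidising enzyme. AFP was at 5.17, 5.99 and 5.92, higher by 1.64 (SE 0.17, adjusted p = 2.38e-08 by limma, n = 3 arrays against 12), but it was at 5.64 in U2OS, a difference of 0.05 (SE 0.21, adjusted p = 0.894). CYP2E1 was at 4.53, 5.34 and 4.85, a difference at the size limit (SE 0.18, adjusted p = 5.34e-05), and its call was lost without replicate 2 of HepG2, without G361, without U2OS and with the mean of its probe sets. Among 28 genes of liver functions (urea cycle, bile acids, clotting, complement) 0 were called higher and 1 lower, ASS1 of the urea cycle, at 3.18, 3.48 and 3.65 against 9.23 in U2OS and 9.80 in BJ.

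**Figure D1:**
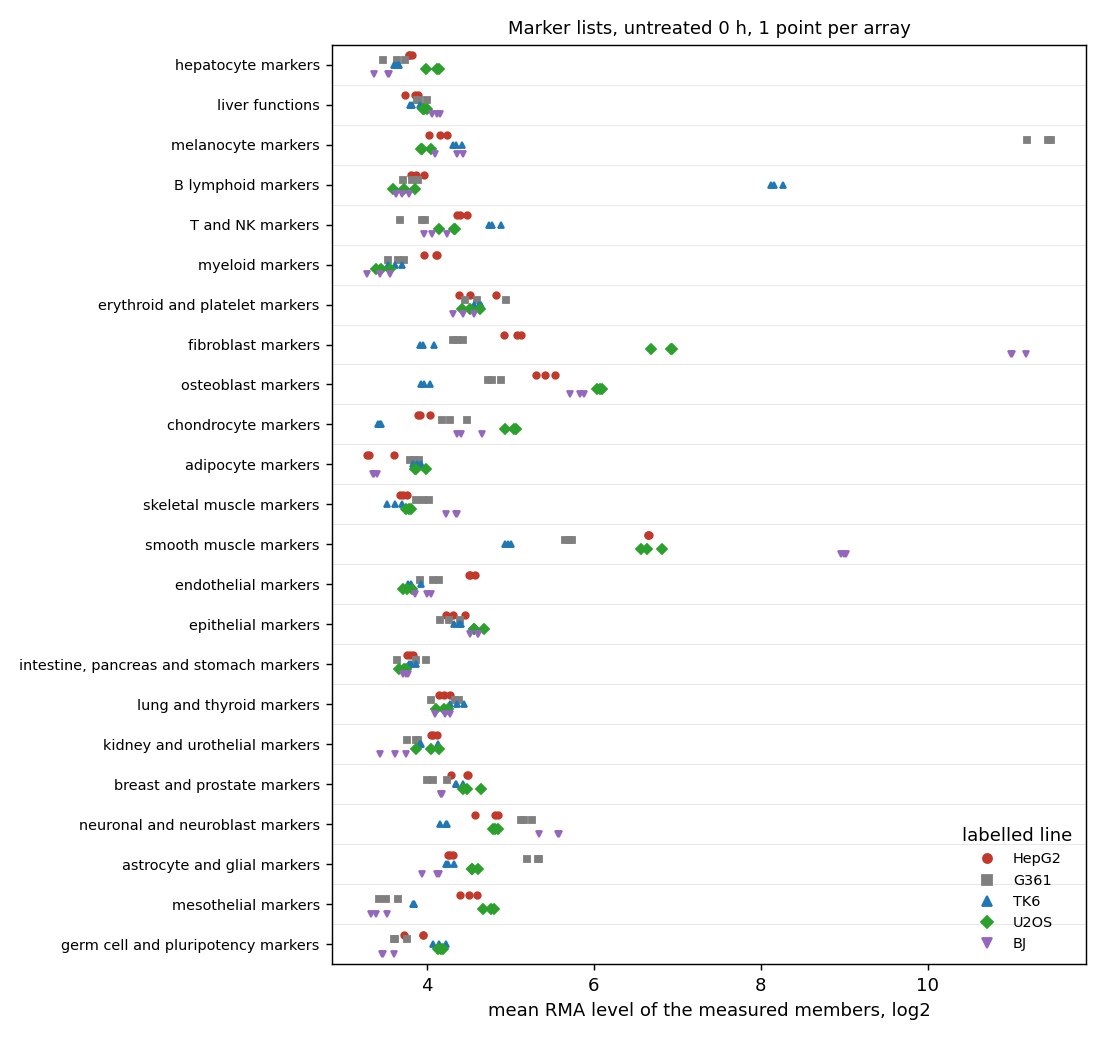
Mean log2 level of the measured members of each marker list (x axis) in each of the 15 untreated 0 h arrays, 1 point per array, with the labelled line given by colour and shape. The 3 arrays labelled HepG2 lie at 3.78 to 3.82 on the hepatocyte list, among the other lines, and at 4.92 to 5.13 on the fibroblast list, where the means of TK6, G361, U2OS and BJ are 3.98, 4.37, 6.85 and 11.06.

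Large differences were nevertheless frequent. Limma called 1078 genes higher and 1477 lower than the mean of the 4 lines, and the median difference over all genes was -0.02 log2. All 3 arrays lay above the other 12 for 661 genes (3.34%) and below them for 740 (3.74%). A stricter rule asks that a gene be called in the same direction against each of the 4 lines. By that rule 235 genes (1.19%) were highest and 171 (0.865%) lowest of the 5 lines in the arrays labelled HepG2. The group mean was most like that of U2OS over all genes (r = 0.921), followed by G361 (0.909), BJ (0.889) and TK6 (0.862). Against U2OS, 1280 genes (6.47%) were higher and 1993 (10.1%) lower. Against BJ, 1787 (9.04%) were higher and 2198 (11.1%) lower. Against G361, 1353 were higher and 1773 lower. By the total of such calls the order of likeness was another one. G361 differed in the fewest genes (3126 of 19775), followed by U2OS (3273), TK6 (3761) and BJ (3985).

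The 20 genes that stood farthest above the next highest line, a set chosen by these same values, came from several tissues. They included genes of blood cell granules and receptors, germ cell antigens, enzymes that are abundant in liver, an endothelial gene and a neurotransmitter receptor. HSD11B1, the enzyme that regenerates cortisol and is abundant in liver and fat, led with 9.22, 9.41 and 9.19 against 2.99 to 3.62 (median 3.24) in the 12 other arrays. It was higher than the mean of the 4 lines by 6.02 (SE 0.15, adjusted p = 1.66e-19), or 65.0-fold, and its mean was under the level limit in all 4. CES1, a carboxylesterase also abundant in liver, was at 9.26, 8.47 and 8.90 against 3.46 to 4.86 (median 3.80). These 2 genes were on neither liver list. AGT (angiotensinogen, mean 5.56) and SERPIND1 (a thrombin inhibitor, 5.83), both made in liver and also on neither list, were highest of 5 as well, named after their values were seen. ALB, FGB and FGG were under the level limit.

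SIGLEC15, a sialic acid-binding receptor known from myeloid cells and osteoclasts, was at 9.81, 10.18 and 10.12 against 4.15 to 4.77 (median 4.43), a difference of 5.62 (SE 0.15). Granzyme B (GZMB), the death-inducing protease of killer lymphocytes, was at 7.96, 8.91 and 8.65, and the other arrays lay at 2.61 to 3.23 (median 3.00). CST7 encodes cystatin F, an inhibitor of the cathepsins that activate granule proteases, and was at 8.78, 8.92 and 9.55 against 3.41 to 4.06 (median 3.64). FPR1, the formyl peptide receptor by which neutrophils sense bacteria, was at 8.48, 8.92 and 8.85 against 3.91 to 4.71 (median 4.17). The other probe set of FPR1 was higher by only 0.55. In each of these 4 genes of leukocytes every array labelled HepG2 lay more than 3 log2 above every other array, including the lymphoid line TK6. All 4 were chosen for a large gap of this kind, so the gap is no separate result about leukocyte genes.

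GABRA6, a GABA receptor subunit known from cerebellar granule neurons, was at 7.82, 7.81 and 7.89 against 2.40 to 2.85 (median 2.67). DDC, the decarboxylase that makes dopamine and serotonin, was at 7.43, 8.59 and 8.55 against 2.85 to 4.22 (median 3.54), with replicate 1 lowest. ECSCR, an endothelial surface protein, was at 7.87, 7.83 and 7.97 against 3.31 to 3.93 (median 3.64). The groups did not overlap for any of these 3 genes, which was a condition for choosing them.

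Signal regulators were also among the leading genes. HHIP, the decoy receptor that binds hedgehog ligands, was at 8.18, 8.63 and 8.59 against 2.74 to 3.68 (median 3.17), with all 4 of its probe sets higher by at least 1 log2. IL17RD, an inhibitor of FGF signalling, was at 8.67, 8.91 and 8.68 against 2.60 to 4.87 (median 3.47). RAB27B, a small GTPase of secretory vesicles, was at 9.69, 10.06 and 9.78, and BJ came next with a mean of 5.59. SERPINB5 (maspin), a serpin of epithelial cells, was at 7.81, 8.21 and 8.15 against 2.96 to 3.73 (median 3.21). The other probe set was higher by only 0.71 for IL17RD and 0.26 for SERPINB5. The remaining genes of the 20 were IGSF5 (mean 7.85), ABTB3 (7.60), the transcription factor gene ZBED2 (6.95) and the antisense RNA HECW2-AS1 (6.70), beside the germ cell antigens given later.

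Genes at the other end were chosen for the largest distance below the next lowest line. A level well above background in every other line largely follows from that choice and is no separate result. HSPB1, the small heat shock protein HSP27, was at 3.48, 4.11 and 4.58 log2, against 8.82 to 12.80 (median 11.81) in the other 12 arrays. It was 147-fold lower than the mean of the 4 lines (difference -7.20, SE 0.20, adjusted p = 1.22e-18), the largest difference among the 45 genes named by distance, by size of difference or as markers. FABP5, a fatty acid carrier, was at 3.05, 3.05 and 2.98, against 6.65 to 11.79 (median 10.81). The lysosomal protease gene CTSC (cathepsin C, the known activator of granzymes) was at 3.71, 3.32 and 3.48 against 8.42 to 10.88 (median 9.26). So the arrays with the highest GZMB and CST7 had the lowest CTSC, and all 4 probe sets of CTSC were lower by at least 1 log2.

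CREG1, a secreted glycoprotein of the lysosomal system, was at 2.90, 2.57 and 2.85 against 7.73 to 9.54 (median 8.58). STOM, the membrane protein stomatin, was at 2.67, 2.69 and 3.27 against 7.31 to 10.59 (median 9.17). PLIN2, the coat protein of lipid droplets, was at 4.73, 4.34 and 4.53 against 8.17 to 10.22 (median 9.68). TIMP3, an inhibitor of matrix proteases, was at 3.41, 4.09 and 3.59 against 7.59 to 10.05 (median 8.56), and all 4 of its probe sets were lower by at least 1 log2. The weakest probe set differed by only -0.29 for STOM and -0.28 for PLIN2.

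The other genes of the 15 were ATPAF1, an assembly factor of the mitochondrial ATP synthase (mean 3.05), the phosphoinositide phosphatase gene MTMR1 (3.91), the focal adhesion scaffold gene NEDD9 (2.90, with 1 of its 5 probe sets going the other way), MSANTD4 (3.11), ZC3HAV1L (2.70), the ribosomal protein gene RPL39L (3.30), MAGED1 (6.59) and PDCD6P1 (2.61). MAGED1 was the exception in level, at 5.97, 7.04 and 6.76 against 10.38 to 12.03 (median 11.02), and so stayed well above background. PDCD6P1 is a pseudogene, and its probes may also read its parent gene, so its value of 2.61 is uncertain. The 3 arrays and the other 12 did not overlap for any of the 15, which was a condition for choosing them.

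**Figure D2:**
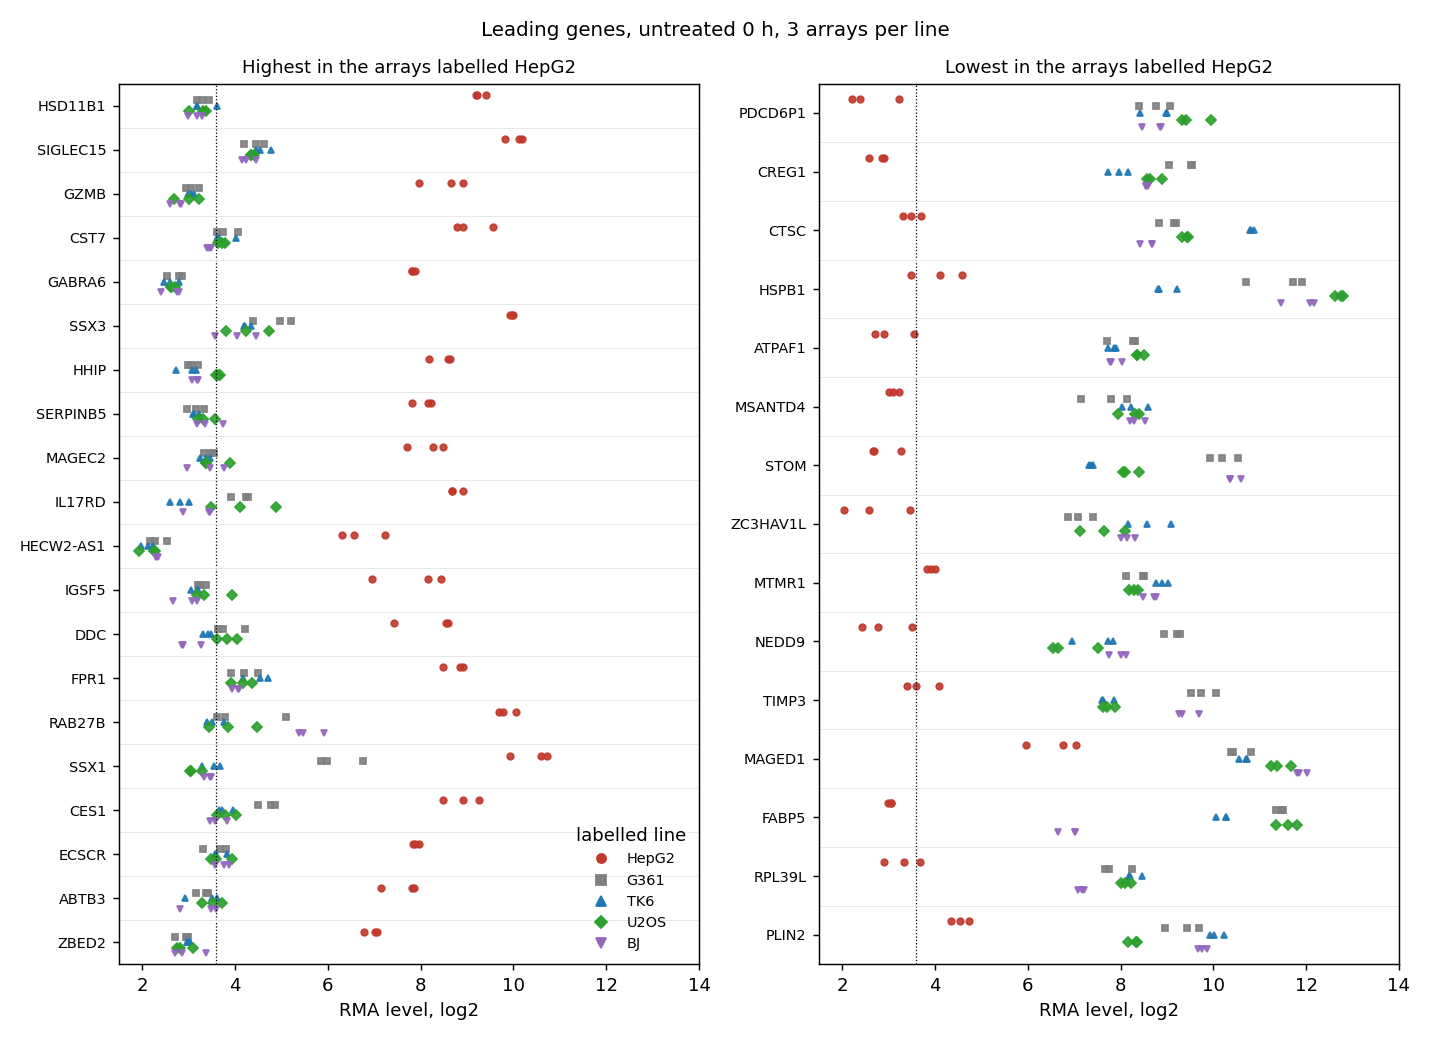
Log2 level (x axis) of the 20 genes that stood farthest above the next highest line and the 15 that stood farthest below the next lowest line, 1 point for each of the 15 untreated 0 h arrays, with the level limit of 3.59 as a dotted line. HSD11B1 lies at 9.19 to 9.41 in the arrays labelled HepG2 and at 2.99 to 3.62 in all others, and HSPB1 at 3.48 to 4.58 against 8.82 to 12.80.

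Genes named for the largest difference from the mean of the 4 lines included some shared with 1 other line. DHRS2, a reductase gene, was at 12.47, 12.24 and 12.25, and at 12.72 in U2OS against 3.94 to 5.15 in the other means. MARCKS, an actin-binding substrate of protein kinase C, was at 2.43, 2.16 and 2.18, and at 2.68 in U2OS against 9.64 to 11.25 elsewhere. Both genes set these arrays and U2OS apart from the other 3 lines. TMEM158, a RAS-induced membrane protein gene, was at 11.47, 11.85 and 11.73, with G361 next at a mean of 8.03. The noncoding LINC01029 was at 9.97, 10.06 and 10.12 against a mean of 6.26 in G361 and 3.36 to 3.39 in the others. Lower were the glutamine transporter gene SLC38A1 (3.26, 2.99 and 3.05, with G361 next at 4.65), the RNA-binding protein gene CELF2 (3.12, 3.26 and 3.57, with U2OS next at 6.13) and the collagen gene COL5A2.

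Many of these sizes depend on the probe set that was read. Of the 45 genes named so far or as markers, 27 had several probe sets, which all went the same way for 24 and all differed by at least 1 log2 for 13. The 3 exceptions in direction were MAGEC2, NEDD9 and RUNX2. With the mean of probe sets in place of the brightest one, the difference shrank by more than 1.5 times for 15 of the 45. It went from 4.54 to 2.54 for FPR1, from 4.79 to 2.53 for SERPINB5, from 5.17 to 2.94 for IL17RD, from 5.53 to 3.04 for RAB27B and from 4.71 to 2.35 for MAGEC2. Among the lower genes it went from -6.18 to -3.84 for STOM, from -4.84 to -2.56 for PLIN2, from -5.63 to -3.34 for SLC38A1, from -5.47 to -1.66 for CELF2 and from -4.97 to -1.36 for NEDD9. It went from -5.02 to -2.55 for MSANTD4, from -4.64 to -2.73 for MTMR1, from -6.35 to -3.62 for PDCD6P1 and from -5.18 to -2.72 for ZC3HAV1L. These 14 kept their call, and the last, RUNX2, lost it.

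Presence and absence were counted with the level limit. A total of 22 genes were under the limit in the arrays labelled HepG2 and at least 2 log2 over it in the other 4 lines. Another 22 showed the reverse, at least 2 log2 over the limit here and under it in the other 4. The first count was 8 for G361, 5 for U2OS, 12 for BJ and 204 for TK6, and the second was 52, 53, 70 and 78. The arrays labelled HepG2 thus had more genes missing than the other adherent lines and the fewest genes of their own by these fixed limits, a comparison with no test. Among the missing genes, named after their values were seen, were CPT1A, which imports fatty acids into mitochondria (mean 3.29), RGS2, an inhibitor of G protein signals (3.08), and IFT27, a ciliary transport gene (3.34). Genes over the limit here and under it in the other 4 lines included NLRP3, the inflammasome sensor (6.05), GZMA (5.59), the T cell receptor constant gene TRBC1 (7.31), and SERPIND1, a thrombin inhibitor made in liver (5.83).

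Promoter sequences were looked at because the silent and the active genes were so far apart in level. CG dinucleotides are known to cluster in the promoters of broadly used genes, and tissue-restricted genes often lack such a cluster. The 200 bases before the annotated start are shown for the first 3 protein-coding genes with a window in each of the 2 rankings, from RefSeq on GRCh38.p14, 5' to 3' on the gene's strand, with each CG in capitals.
HSD11B1 (chr1:209685979-209686178, plus strand, high): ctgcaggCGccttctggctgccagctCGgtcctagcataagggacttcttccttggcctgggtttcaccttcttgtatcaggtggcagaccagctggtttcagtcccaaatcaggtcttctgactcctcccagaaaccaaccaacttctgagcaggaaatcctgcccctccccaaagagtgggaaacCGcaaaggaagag
SIGLEC15 (chr18:45825475-45825674, plus strand, high): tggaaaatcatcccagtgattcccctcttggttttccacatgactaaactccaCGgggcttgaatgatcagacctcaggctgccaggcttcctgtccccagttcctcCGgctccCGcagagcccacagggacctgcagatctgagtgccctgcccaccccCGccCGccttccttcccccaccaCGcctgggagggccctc
GZMB (chr14:24634191-24634390, minus strand, high): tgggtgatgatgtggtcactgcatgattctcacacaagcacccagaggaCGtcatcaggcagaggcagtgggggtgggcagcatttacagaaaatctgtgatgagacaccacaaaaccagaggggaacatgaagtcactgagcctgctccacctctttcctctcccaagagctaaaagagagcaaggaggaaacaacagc
CREG1 (chr1:167553763-167553962, minus strand, low): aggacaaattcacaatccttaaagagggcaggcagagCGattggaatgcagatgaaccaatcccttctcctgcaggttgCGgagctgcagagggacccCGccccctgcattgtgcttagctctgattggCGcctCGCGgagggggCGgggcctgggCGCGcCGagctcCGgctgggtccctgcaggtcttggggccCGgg
CTSC (chr11:88337737-88337936, minus strand, low): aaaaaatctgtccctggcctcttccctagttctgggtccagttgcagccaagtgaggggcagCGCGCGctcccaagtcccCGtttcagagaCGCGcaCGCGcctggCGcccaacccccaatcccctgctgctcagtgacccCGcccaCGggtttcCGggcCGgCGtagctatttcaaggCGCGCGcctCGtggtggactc
HSPB1 (chr7:76302473-76302672, plus strand, low): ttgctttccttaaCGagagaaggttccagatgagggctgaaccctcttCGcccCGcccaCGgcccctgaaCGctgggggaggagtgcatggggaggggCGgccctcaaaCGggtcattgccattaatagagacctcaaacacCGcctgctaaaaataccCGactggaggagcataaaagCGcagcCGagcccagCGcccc

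The 3 high genes had 3, 6 and 1 CG in these stretches, and the 3 low genes had 12, 18 and 12. Over windows of 300 bases (250 before to 50 after the start), found for 15382 of the 19775 genes, the median number of CG was 22 over all genes. It was 25 for 146 of the 171 lowest genes and 15 for 184 of the 235 highest. Genes over the level limit in the other 4 lines had a median of 26, near that of the lowest genes, and genes under it in those 4 lines had a median of 6. Of the 50 highest genes under the limit in all 4 other lines, 40 had a window, with a median of 5. Of the 40 lowest genes under the limit in the arrays labelled HepG2, 33 had a window, with a median of 21, and 75.8% of the 33 had 15 or more CG against 79.0% of genes over the limit in the other 4 lines. No test was made of these counts.

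**Figure D3:**
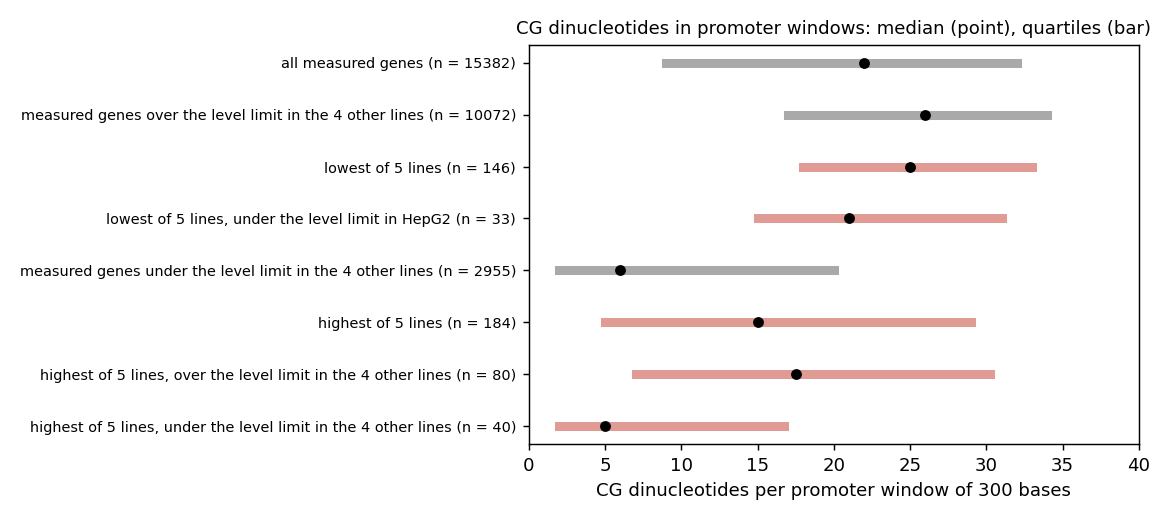
Number of CG dinucleotides in promoter windows of 300 bases (x axis) for gene classes at 0 h, with the median as a point and the quartiles as a bar (grey for classes set by the other lines, red for classes set by the arrays labelled HepG2). The lowest genes have a median of 25, close to the 26 of genes over the level limit in the other 4 lines, and the highest genes under the limit in the other lines have a median of 5.

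The gene lists below were compared with the mean of the 4 lines, and for many genes that mean is set by 1 line. The counts stand beside shares over all genes of 5.45% called higher and 7.47% called lower. Against U2OS alone those shares were 6.47% and 10.1%, and against BJ alone 9.04% and 11.1%. No test of any list was made. Apart from the 45 genes above, 184 list members were called. Of these, 102 lost the call or turned direction under at least 1 alternative, 93 of them when 1 of the 4 lines was left out of the mean, 45 with the mean of probe sets and 10 when arrays were left out. The direction turned for 22 members, each time with 1 line left out. The 10 were ACVR1, CNN1, CYP2E1, FBN1, HOXC11, HOXD10, IFI6, IGF1R, INHBA and ITGA11.

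Fibroblast markers were called in both directions. COL6A3, the collagen VI alpha 3 chain, was at 10.94, 11.35 and 11.30 log2, above U2OS (mean 9.10) and below BJ (12.03), while G361 and TK6 were at 3.13 and 2.79. It was higher than the mean of the 4 lines by 4.44 (SE 0.25, adjusted p = 5.01e-13). The genes of its partner chains were not called, with COL6A1 at 7.33, 8.03 and 7.97 against 11.33 in BJ, and COL6A2 at 5.17, 5.67 and 5.30 against 10.24 in BJ. Levels of different genes' probe sets are not on one scale, so only the order of the lines is read for each gene.

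Of 18 fibroblast markers 3 were called higher and 11 lower, with a median difference of -2.40. The higher ones were COL6A3 and the transcription factor genes TWIST1 (6.33, 6.90 and 6.37) and TWIST2 (7.40, 7.63 and 7.39), both known for mesenchymal identity. Lower were COL1A1, COL1A2 and COL3A1, the fibrillar collagens of skin and bone, with the matrix genes LUM, DCN, FBLN1 and POSTN, the receptor gene PDGFRA, the surface genes THY1 and FAP, and the transcription factor gene PRRX1. LUM (lumican) was at 2.01, 2.11 and 2.15 against 11.65 in BJ, 7.99 in U2OS and 7.74 in G361. COL1A1 was at 3.83, 6.14 and 5.68, with replicate 1 lowest, against 12.24 in U2OS and 12.76 in BJ. Against BJ alone 17 of the 18 were lower and 0 higher, and against U2OS 11 were lower and 3 higher. Without BJ in the mean COL1A2, DCN, PDGFRA and POSTN were no longer called, as was TWIST1 without TK6 or without U2OS. DCN and PDGFRA also lost the call with the mean of probe sets.

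RUNX2, the master transcription factor of bone formation, was at 8.99, 9.22 and 9.15, against 8.16 in U2OS, 7.76 in BJ, 4.22 in G361 and 2.56 in TK6. It was higher than the mean of the 4 lines by 3.44 (SE 0.16, adjusted p = 1.41e-14), and higher than U2OS by 0.96 (SE 0.21, adjusted p = 5.46e-04), just under the size limit. This rests on 1 of its 6 probe sets. On the other 5 the difference ran from -0.50 to 0.09, and 2 of them were highest in U2OS, at 5.62 and 5.09 against 3.69 and 3.57 in the arrays labelled HepG2. With the mean of all probe sets RUNX2 was no longer called. Of 10 osteoblast markers 1 was called higher (RUNX2) and 1 lower (COL1A1). The bone matrix genes SPP1 (mean 7.15, with 8.87 in U2OS), IBSP (4.46) and ALPL (3.22) and the osteoblast transcription factor gene SP7 (3.23) were not called.

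Of 7 melanocyte markers 0 were called higher and 6 lower, and of 10 B lymphoid markers 0 were higher and 5 lower. MLANA, a melanosome antigen, was at 2.99, 2.64 and 2.91 against 12.38 in G361, and CD79A, of the B cell receptor, at 4.30, 4.85 and 5.07 against 9.42 in TK6. Against U2OS 0 members of either list were called in any direction. Without G361 in the mean MLANA, PMEL and MITF were no longer called and TYR, TYRP1 and S100B turned direction. Without TK6 CD79A was no longer called and MS4A1, CD37, CD74 and POU2AF1 turned direction. With the mean of probe sets S100B, CD79A, CD37, CD74 and POU2AF1 were no longer called. The adherens junction gene CDH1 of epithelia was at 2.53, 2.39 and 2.35, and ESRP1, the epithelial splicing factor, at 2.91, 2.81 and 2.80, both called lower, ESRP1 not without G361 and CDH1 not with the mean of probe sets. The simple-epithelial keratin genes KRT8 (8.10, 7.70 and 7.67) and KRT18 (10.17, 9.85 and 9.91) were higher, though KRT18 was at 10.60 in U2OS and 11.40 in BJ, and KRT8 lost the call without G361. Intestine, pancreas and stomach (11 measured), lung and thyroid (8), erythroid and platelet (7), and germ cell and pluripotency (9) had 0 members called.

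Single members of other lists were highest of the 5 lines. TIE1, an endothelial receptor tyrosine kinase, was at 6.61, 8.01 and 7.80 against 2.64 to 4.31 (median 2.93), a difference of 4.40 (SE 0.23, adjusted p = 1.01e-13). The defining endothelial genes CDH5 (mean 2.60), KDR (2.98) and VWF (3.30) were under the level limit, and 2 of 12 members were called, TIE1 and ENG. CSF1R, the macrophage growth factor receptor, was at 6.35, 6.56 and 6.66, and FCER1G, the signalling chain of Fc receptors, at 6.06, 6.65 and 6.77, each highest of 5. CD14 (3.43) was under the limit, and 2 of 9 myeloid markers were called. CD3D, a chain of the T cell receptor complex, was at 6.56, 6.58 and 6.78 while CD3E was at 4.36 and CD2 at 3.24, and of 11 T and NK markers 2 were higher and 1 lower. Such counts depend on the list. Other genes known from endothelium, ADGRL4 (mean 9.23), EDN1 (8.34), KLF2 (8.57) and NOS3 (6.15), and from leukocytes, ADGRE1 (8.57), C3AR1 (5.98), LAT (6.44) and SIGLEC5 (5.33), were on none of these lists and were also highest of 5, named after their values were seen. They were picked because they were highest. Genes of these cell types that were not highest were not counted, so the examples do not show a wider endothelial or leukocyte programme.

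Members of lists outside the blood and vessels were called too. SLC1A3, a glutamate transporter of astrocytes, was at 8.29, 8.40 and 8.43 against 3.84 to 6.80 (median 4.73), and ALDH1L1 was also highest, while 3 of 12 glial markers were lower, NES, MBP and S100B. SNAP25, of the synaptic release machinery, was at 6.59, 7.83 and 7.53 with U2OS next at 6.08, and CHGB, a granule protein gene, was highest at 4.83. Of the 13 neuronal markers 2 were lower, STMN2 (2.73) and L1CAM (2.55), and STMN2 was not called without BJ. PGR, the progesterone receptor, was at 4.68, 5.89 and 5.58 against 2.92 to 3.85, the only one of 8 breast and prostate markers called. WT1, known from kidney and mesothelium, was at 5.79, 6.50 and 6.29, called higher, with U2OS at 5.83. The mesothelial calretinin gene CALB2 was at 7.58, 7.90 and 7.92, below U2OS at 9.90. No list of a tissue had all of its measured members called higher. The largest count relative to list size among the 23 lists in the plot of marker lists was 2 of 7 (mesothelial), and both of those genes were shared with U2OS.

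Transcription factors of mesenchymal tissue were called in both directions. Of 26 measured, 9 were called higher and 6 lower, and 9 had a mean under the level limit. FOXD1, a forkhead factor of kidney stroma and fibroblasts, was at 11.36, 11.72 and 11.59 against 3.03 to 8.83 (median 7.82), the highest of the 5 lines by 2.83 over BJ (adjusted p = 7.39e-13). SIX2, a factor of kidney and facial mesenchyme, was also highest at 4.81, 5.78 and 5.72. FOXC2 (mean 7.31), FOXF2 (7.43), PITX1 (6.57), SNAI2 (9.12) and ZEB1 (9.51) were higher besides TWIST1 and TWIST2. ZEB1 and SNAI2, known as repressors of CDH1, were at levels near those of BJ (9.57 and 9.64), where CDH1 was at 2.81. A link between these factors and the level of CDH1 was not tested. PRRX1, TBX2, TBX5, FOXF1, MEOX1 and HIC1 were lower. Without TK6 FOXF2, TWIST1, MEOX1 and HIC1 lost the call and SNAI2 turned direction. Without G361 ZEB1 and TBX2 lost it, and without BJ FOXF1 and HIC1 lost it and TBX5 turned direction. With the mean of probe sets TBX2, TBX5 and HIC1 were no longer called.

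HOX genes, which record position along the body, gave a mixed pattern. HOXB2 was at 9.52, 9.49 and 9.45 against 4.12 to 7.44 (median 5.78), and HOXB6 at 7.33, 7.30 and 7.22 against 2.64 to 6.09 (median 4.24), both highest of 5. HOXB7 was also called higher (8.58, 8.96 and 8.85), although G361 and U2OS were at 9.41 and 9.52, and HOXB13 was lower. Of 9 HOXC genes 0 were higher and 2 lower (HOXC4, HOXC11), and of 8 HOXD genes 0 were higher and 1 lower (HOXD10). HOXB7 lost the call without BJ, HOXB13 without U2OS, and HOXC11 and HOXD10 without either line, without replicate 1 of HepG2 and with arrays centred on their median. HOXB13 and HOXD10 also lost it with the mean of probe sets. Most HOXA genes were not analysed here.

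Matrix genes were called in both directions in equal numbers. Of 36 matrix proteins and enzymes 11 were higher and 11 lower, and against BJ 3 were higher and 30 lower. PLAU, the urokinase that activates plasmin at the cell surface, was at 10.01, 10.32 and 10.37 against 4.25 to 7.69 (median 6.07), highest of 5 by 3.15 (adjusted p = 1.48e-09). The collagen cross-linking enzymes LOX (8.47, 8.36 and 8.30), LOXL1 (8.30, 8.89 and 8.87) and LOXL2 (10.24, 10.48 and 10.58) were higher than the mean of the 4 lines and lower than BJ. FN1 (fibronectin), TNC, VCAN, NID1, TGFBI, TIMP2 and MMP9 were also higher. The elastic fibre genes ELN, FBN1 and FBLN5 were lower, as was MMP1. Without TK6 LOX, LOXL2, FN1, TNC, NID1 and TGFBI were no longer called and TIMP2 turned direction. With the mean of probe sets LOX, LOXL2, FN1, TNC, NID1 and ELN were no longer called, and LOX and NID1 were not called without G361. Without BJ MMP9 was not called, and ELN, FBN1 and MMP1 turned direction.

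Among 33 collagen genes 5 were higher and 9 lower. COL4A1 (10.52, 10.98 and 10.94) and COL4A2 (11.14, 11.69 and 11.74), of basement membrane, were higher, with COL6A3, COL8A1 and COL13A1, and only COL13A1 was highest of 5, at 7.34, 7.67 and 7.69. COL5A2 was lowest at 3.81, 3.23 and 3.30 against 6.69 to 11.98 (median 8.13), and COL5A3 was lowest at 3.91, 3.90 and 4.03. Collagen V chains initiate fibrils of collagen I, whose 2 genes were also lower. Without TK6 COL4A1, COL4A2 and COL8A1 were no longer called, and COL8A1 was also not called without G361 or with the mean of probe sets.

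Integrins, the cell's receptors for matrix, were called in both directions. Of 19 measured, 7 were higher and 5 lower. ITGA1, a collagen-binding chain, was at 7.46, 8.62 and 8.59 against 3.59 to 6.81 (median 4.32), and ITGA10, another collagen-binding chain, was at 7.07, 7.74 and 8.47 against 3.99 to 5.34 (median 4.44), both highest of 5. ITGA4, the chain that binds VCAM1 and fibronectin, was lowest at 2.45, 2.73 and 3.34, and ITGB8, an activator of latent TGF-beta, was lowest at 2.33, 2.04 and 2.56. ITGA2, ITGA3, ITGA5, ITGA6 and ITGB5 were also higher. ITGA7, ITGB2 and ITGA11 were also lower, and ITGA11 is a collagen-binding chain as well, so such chains went in both directions. Of the cadherins, CDH2 (9.84, 10.25 and 10.18) and CDH11 (8.88, 9.60 and 9.25), the mesenchymal types, were higher, and CDH1 was lower. Without TK6 ITGA5 and ITGB2 lost the call and CDH2 turned direction. ITGA7 lost it without G361, and ITGA11 without BJ, without replicate 1 and with arrays centred on their median. With the mean of probe sets ITGA11, CDH1 and CDH2 were no longer called.

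**Figure D4:**
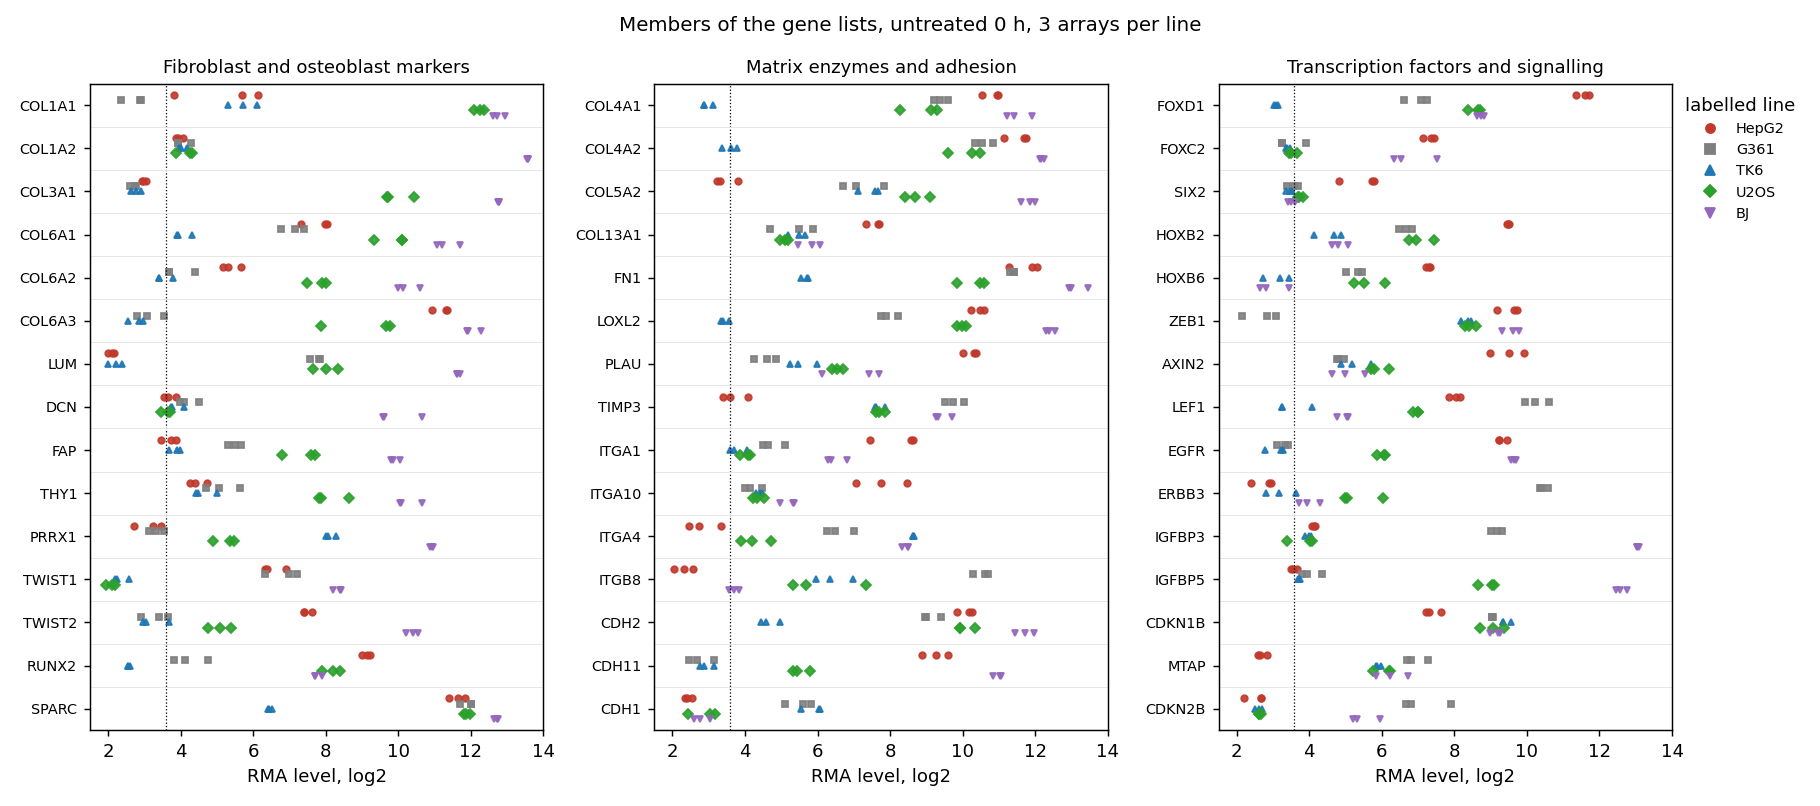
Log2 level (x axis) of members of the gene lists in the 15 untreated 0 h arrays, 1 point per array, coloured by labelled line, with the level limit of 3.59 as a dotted line. COL6A3, RUNX2, CDH11 and FOXD1 lie at 8.88 to 11.72 in the arrays labelled HepG2, while LUM, COL3A1 and CDH1 lie at 2.01 to 3.04.

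Germ cell antigens, normally silent outside the testis but often active in tumours, were called in both directions. Of 12 measured, 6 were higher and 1 lower, and against U2OS 2 were higher and 4 lower. The mean of the list was 6.46 to 6.77 in the arrays labelled HepG2, 6.65 to 6.74 in U2OS and 5.97 to 6.17 in G361. SSX1 was at 9.92, 10.72 and 10.59 with G361 next at a mean of 6.19, and SSX3 at 9.92, 9.97 and 9.99 against 3.56 to 5.20 (median 4.28). SSX genes are nearly identical neighbours on the X chromosome, so their probe sets may read each other. MAGEC2 was at 8.49, 8.27 and 7.70 against 2.97 to 3.89 (median 3.42) on 1 of its 2 probe sets. MAGEA6 (11.30, 11.34 and 11.39) and MAGEB2 (9.53, 9.72 and 9.69) were shared with G361 and U2OS, and MAGEA4 was lower, with U2OS at 9.55 and all other means at 2.24 to 2.63. Without U2OS its direction turned.

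In the WNT pathway, in which secreted ligands act through FZD receptors to switch on target genes such as AXIN2, 5 of 21 genes were higher and 4 lower. AXIN2, the feedback inhibitor often used as a readout, was at 8.99, 9.92 and 9.52 against 4.64 to 6.19 (median 5.09), the highest of 5 by 3.59 (adjusted p = 3.22e-11). The ligand gene WNT5A (8.56, 9.43 and 9.19), the receptor gene FZD6 (8.89, 9.22 and 8.86) and the nuclear effector gene LEF1 (7.85, 8.16 and 8.06) were higher. The secreted inhibitor genes DKK1 (2.48, 2.52 and 3.03, with BJ at 12.11 and G361 at 8.16) and SFRP1 (3.33, 3.29 and 3.40) were lower, while DKK3 was higher. The ligand gene WNT5B and the co-receptor gene LRP5 were lower too, so ligands and inhibitors were called in both directions. Without TK6 FZD6 and LEF1 lost the call and DKK3 turned direction. LEF1, DKK3, WNT5B and LRP5 lost it with the mean of probe sets, DKK3 without G361 and WNT5B without BJ.

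Among 21 genes of TGF-beta and BMP signalling 8 were higher and 1 lower. The ligand genes TGFB1, TGFB2 (7.46, 8.45 and 7.98) and INHBA were higher, with the receptor genes TGFBR2 (9.48, 9.78 and 9.74), TGFBR3, BMPR1B and ACVR1. Of the secreted BMP antagonists, NOG was higher at 7.10, 7.89 and 7.28, with U2OS at 8.32, and GREM1 was lower at 2.26, 2.42 and 2.49, with BJ at 12.23. None of the 21 was highest or lowest of the 5 lines. Without TK6 TGFBR2 lost the call and ACVR1 and INHBA turned direction. TGFB1 and INHBA lost it without G361 and with the mean of probe sets, and GREM1 lost it without BJ.

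Growth factor genes were called equally often in each direction, 9 of 37 higher and 9 lower, beside 5.45% and 7.47% of all genes. EGFR was at 9.23, 9.24 and 9.44, near BJ (9.63) and above U2OS (6.01), and ERBB3, its relative, was lower at 2.39, 2.88 and 2.95. MET, AXL, NRP1, PDGFA, PDGFC, FGF1, VEGFC and IGFBP7 were also higher. Lower besides ERBB3 and PDGFRA were IGF1, its receptor IGF1R, INSR, IGFBP2, IGFBP3, IGFBP4 and IGFBP5. IGFBP5 was at 3.65, 3.49 and 3.55 against 12.59 in BJ and 8.93 in U2OS. MET, AXL and PDGFA lost the call without TK6, IGFBP2 and PDGFA without G361, and PDGFRA and IGFBP4 without BJ. IGF1R lost it without any of G361, U2OS or BJ. With the mean of probe sets ERBB3, IGF1, IGF1R, INSR, PDGFA and PDGFRA were no longer called.

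Several genes of antigen presentation were lower. Of 12 genes of MHC class I, which shows peptides on nearly all cells, 5 were lower and 1 higher. HLA-B was at 8.14, 8.33 and 8.41 against means of 8.92 (G361) to 12.75 (TK6), and HLA-C at 8.47, 8.82 and 8.56 against 9.30 to 12.34. TAP2, a subunit of the peptide transporter, was highest of 5 at 8.92, 9.24 and 9.25. Probe sets for class I genes may read each other because the genes are near-identical. Class II genes were lower in 7 of 12 against the mean of the 4 lines, and against U2OS 0 were lower and 1 higher. Without TK6 none of the 7 was called, and HLA-DRA and CD74 turned direction. Of 19 interferon-stimulated genes 1 was higher (IFI44) and 6 lower, among them IRF9 at 5.25, 5.43 and 5.58, and against U2OS 4 were higher and 2 lower. The mean of the list was 4.66 to 4.96 here, 4.69 to 4.84 in G361 and 4.53 to 4.77 in U2OS, against 6.15 to 6.32 in TK6 and 6.36 to 6.80 in BJ. BST2 and MX2 lost the call without TK6, IFI6 and XAF1 without BJ, and IFI44 and XAF1 with the mean of probe sets.

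Among 23 genes of G1 control and the response to DNA damage, 1 was higher and 6 lower, with a median difference of 0.15. Against U2OS 7 were higher and 6 lower, and against BJ 6 and 6. The higher one was CCND1 (cyclin D1) at 9.71, 10.08 and 9.88, below BJ at 10.55. CDKN1B, the p27 inhibitor of cyclin-dependent kinases, was lowest of 5 at 7.22, 7.64 and 7.31 against 8.71 to 9.55 (median 9.14), and CDKN1C and CCNE1 were lower. MTAP, a methionine salvage enzyme, was lowest of 5 at 2.83, 2.59 and 2.63 against 5.76 to 7.28 (median 6.21). CDKN2A (4.01, 4.08 and 4.30) and CDKN2B (2.67, 2.68 and 2.21), which lie beside MTAP on chromosome 9, were lower than the mean of the 4 lines. They were not lowest of 5, with CDKN2A at 3.98 in U2OS and 4.36 in G361, and CDKN2B at 2.60 in TK6 and 2.62 in U2OS. CCND1 lost its call without TK6, CCNE1 without U2OS and CDKN2A without BJ. With the mean of probe sets CDKN1C, CCNE1 and CDKN2A were no longer called. The arrays measure RNA and cannot show whether DNA of this region was lost.

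Among measured genes in chromosome order, consecutive genes were both highest in 10 places, including SSX1 with SSX3 on X, HHIP with HHIP-AS1 on 4, B3GALT5 with IGSF5 on 21 and the keratin genes KRT79 with KRT78 on 12. Consecutive genes were both lowest in 2 places, CDKN1B with APOLD1 on 12 and YPEL2 with DHX40 on 17. How many such places would arise by chance was not worked out, so the counts do not show clustering. The probe sets of SSX1 and SSX3 may read each other. Positions are from RefSeq on GRCh38.p14.

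The baseline differences were then examined in arrays that had no part in choosing the genes, the untreated arrays at 3 h and 6 h. These are other arrays of the same 5 lines and do not test what the HepG2 label stands for. At 3 h 1383 genes (6.99%) were higher and 1314 (6.64%) lower than the mean of the 4 lines, and at 6 h 1261 (6.38%) and 1370 (6.93%). Of the 1078 genes higher at 0 h, 1054 were called higher at 3 h and 1028 at 6 h, and 0 were called lower. Of the 1477 lower genes, 1176 and 1222 were lower again, and 0 were called higher. The highest genes numbered 303 (1.53%) and 266 (1.35%) at the later times and the lowest 116 (0.587%) and 152 (0.769%). Of the 235 highest genes, 223 were highest again at 3 h and 213 at 6 h, and of the 171 lowest, 106 and 126 were lowest again.

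All 20 of the farthest high genes and all 15 of the farthest low genes kept that rank at both later times. HSD11B1 differed by 6.02, 6.05 and 5.93 from the mean of the 4 lines at 0 h, 3 h and 6 h, GZMB by 5.55, 5.81 and 5.68, and HSPB1 by -7.20, -6.82 and -7.48. Over the whole series, HSD11B1 ran from 9.04 to 9.85 in the 15 arrays labelled HepG2 and from 2.93 to 3.93 in the other 60. CTSC ran from 3.13 to 3.72 in the 15 and from 8.05 to 11.02 in the 60. For 211 of the 235 highest genes all 15 arrays lay above all 60 others, and for 122 of the 171 lowest all 15 lay below. Over all 19775 genes the counts were 355 above and 189 below. These ranges and counts include the 0 h arrays by which the highest and lowest genes were chosen.

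**Figure D5:**
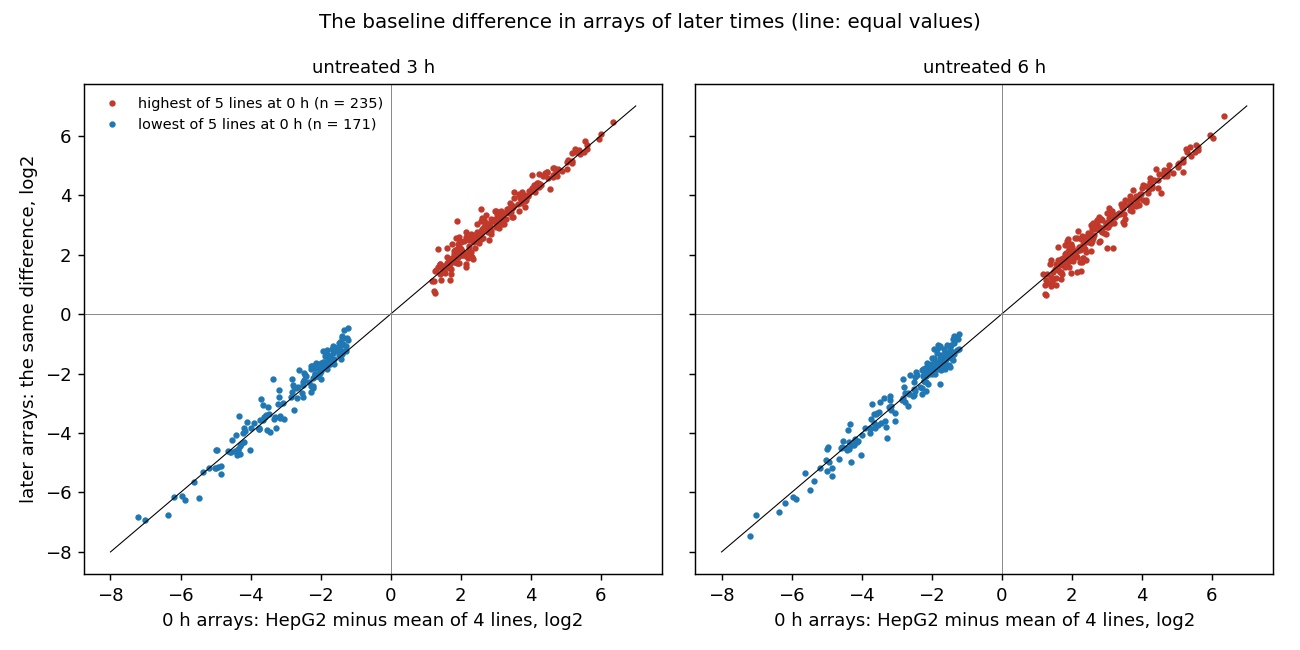
Difference between the arrays labelled HepG2 and the mean of the 4 lines at 0 h (x axis, log2) against the same difference in the untreated arrays of 3 h (left) and 6 h (right, y axis, log2), 1 point for each of the 235 highest and 171 lowest genes, with the line of equal values. Points lie along the line, with HSPB1 at -7.20 on the x axis and -6.82 and -7.48 on the y axes.

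Treatment and time were examined within the 15 arrays labelled HepG2. A moderated F test over the 5 conditions (untreated at 0 h, 3 h and 6 h, irradiated at 3 h and 6 h) called 227 genes (1.15%), of which 5 were among the 235 highest and 9 among the 171 lowest. That count was 550 with a replicate block, 1514 without the arrays of replicate 1, 45 without replicate 2 and 33 without replicate 3. After group means were removed, 21 of 30 pairs of same-numbered arrays of different conditions correlated over 0.1, so the count depends on the fit. The change of the baseline difference itself was called for 1 gene between 0 h and 3 h (0.00506%) and for 8 between 0 h and 6 h (0.0405%), none of them among the highest or lowest genes. The largest of these was GDF15, a stress cytokine, which stood at 8.89 in the untreated arrays of 0 h and at 10.88 in those labelled untreated at 6 h. FUCA1, a lysosomal fucosidase, was at 6.27 and 8.26. Arrays labelled untreated at 6 h thus had higher levels of both genes than those of 0 h, and their values here are given by label.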

How the data were processed

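The authors deposited log2 expression values of 54675 probe sets on 75 single-channel Affymetrix arrays, on the RMA scale, a method that the submitters' processing notes name. Its version and the set of arrays normalized together are not given in the sources used here. Probe sets with 1 gene symbol (41097) were kept, leaving out 1801 with several symbols and 11777 unnamed, and each of 19775 genes was read from its probe set of highest average level. All columns of values were used, and 0 were left out. Group means of 5 lines were fitted to the 15 untreated 0 h arrays with limma 3.58.1 in R 4.3.3 (eBayes, trended variance), with Benjamini-Hochberg adjustment across all 19775 genes. The fit was tested on simulated data. A call needs an adjusted p under 0.05 and 1 log2. Named were the 20 highest and 15 lowest genes by distance to the nearest line, the 10 largest differences from the mean of the 4 lines in each direction, called list members and COL6A3, RUNX2 and AFP. Genes outside this rule are given as values of list members or said to be named after their values were seen. The comparison and the lists were chosen with earlier results of these data known. The number of arrays limits the precision. Alternatives were a level filter, other normalizations, the mean of probe sets, other variance fits, a replicate block, and leaving out lines or arrays. Same-numbered 0 h arrays labelled HepG2 correlated with the mean of the other lines at -0.151, 0.200 and 0.051 after group means were removed, so at 0 h the numbers did not pair the arrays. Promoter windows are RefSeq's (GRCh38.p14).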

Additional observations from a re-analysis of the deposited data

Results flagged for a closer look

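For 9 genes the difference between the arrays labelled HepG2 and the mean of the 4 lines changed between 0 h and a later untreated time by limma's test of that change, adjusted over all genes. Between 0 h and 6 h it changed by 2.15 log2 for GDF15 (adjusted p = 1.32e-05), 1.88 for FUCA1 (4.06e-04), 1.84 for ATF3 (0.0099), 1.29 for TENT5A (0.0421), 1.25 for ACER2 (2.11e-04), 1.06 for IRX2 (0.0099), -1.03 for MYC (0.00843) and -1.17 for BORA (0.0099). Between 0 h and 3 h it changed by 1.14 for ZNF300P1 (adjusted p = 4.77e-04). GDF15 and IRX2 were higher than the mean of the 4 lines at 0 h, and the other 7 were not called there.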

How the results depend on the processing

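The 45 genes named by distance, by size of difference or as markers gave 809 values over 18 alternatives, of which 808 kept their direction and call, 1 lost the call (RUNX2 with the mean of its probe sets, at 0.42 log2) and 0 reversed. All but COL6A3, RUNX2 and AFP were chosen for large differences in these same values, so calls at 1 log2 could hardly be lost. The other 184 called list members gave 3312 values, of which 3137 kept direction and call, 153 lost the call (in 93 genes) and 22 turned direction. Without TK6 the differences that turned were 0.2283 for MS4A1, 0.2311 for CD74, 0.2303 for POU2AF1, 0.0243 for CD37, 0.1356 for HLA-DRA, -0.545 for CALD1, -0.2669 for SNAI2, -0.4254 for TIMP2, -0.2082 for CDH2, -0.0137 for ACVR1, -0.0072 for INHBA and -0.1926 for DKK3. Without BJ they were 0.0332 for TBX5, 0.4813 for COL12A1, 0.1087 for BGN, 0.1067 for FBN1, 0.2878 for ELN and 0.1823 for MMP1. Without G361 they were 0.1963 for TYR, 0.5117 for TYRP1 and 0.1853 for S100B, and without U2OS 0.0527 for MAGEA4. Leaving out arrays gave 1012 to 1284 higher, 1315 to 1619 lower, 224 to 273 highest and 140 to 199 lowest genes. With the mean of probe sets 111 genes were lowest. With fewer comparison lines the rule is easier to pass: lowest genes numbered 399 without TK6 and 262 without U2OS, and highest genes 381 without U2OS and 382 without BJ. Without a size limit 16.6% of all genes were higher, 21.7% lower, and 562 genes highest and 528 lowest. At 2 log2 or more 1.96% were higher, 1.83% lower, and 95 genes highest and 49 lowest. Of hepatocyte and liver genes 2 were higher, 1 with the mean of probe sets, without G361 or without U2OS, 1 to 2 with arrays left out, and 0 at 2 log2 or more. The correlation with U2OS was 0.8749 over genes passing the level filter. Centring arrays on their median moved the median of all genes from -0.02 to 0.08 log2. The fit with a replicate block changed none of the counts at 0 h (1078, 1477, 235 and 171), and the numbers do not pair the arrays at 0 h. Over the 5 conditions of the HepG2 line the replicate block called 550 genes in place of 227 (of 30 same-numbered pairs 21 correlated over 0.1, from -0.142 to 0.440, so not every pair did), and leaving out a replicate number gave 33 to 1514. The cause of these changes was not tested.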
